A study of Homo sapiens with 66 samples.

Results

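Double targeting of ADAR and hnRNPC was examined in total RNA of a STING-sufficient, wild-type clone of THP-1, a human monocytic leukemia cell line. The rule took the 2 libraries of cells given ADAR and hnRNPC gRNAs (hereafter double-targeted) and the 2 libraries of cells given nontarget gRNA (CTRL), that is 4 of the 66 samples of the series and 4 of the 18 libraries of its second study. The genes were those of that study's gene count table: 57820 were listed, and 13637 passed a filter on low counts (an average log2 CPM of at least 0.5 over the 18 libraries, CPM being read counts scaled to library size) and were tested. All groups were cells of a single Cas9-transgenic clone obtained by limiting dilution, nucleofected with gRNAs, grown in medium and harvested on day 4, from which ribosomal RNA-depleted, stranded libraries of total RNA were made. The groups set beside them were hnRNPC-targeted cells (2 libraries), ADAR-targeted cells (2 libraries), cytosolic-enriched RNA of double-targeted and CTRL cells of this clone (4 libraries), and double-targeted, CTRL and IFN-α-treated CTRL cells of day 4 from a STING-deficient clone of the first study, which had 3 libraries per group and other gRNAs. The replicates came from independent experiments. The p-values rest on the spread between replicate libraries, pooled over all groups of a fit. The CTRL pair of total RNA was more spread than any other pair, so the p-values need not hold the full spread of that pair.

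ADAR converts adenosine to inosine within double-stranded RNA (dsRNA), which mostly arises from inverted Alu repeats in human transcripts, and edited duplexes are poorer ligands for the cytosolic sensor MDA5. hnRNPC coats uridine tracts of nascent transcripts and keeps cryptic splice sites in antisense Alu elements from being used. When sensors such as MDA5 are engaged, IFN-β is made and signals through a complex that includes STAT2 and IRF9 to induce IFN-stimulated genes (ISGs), while protein kinase R (EIF2AK2) can also start the integrated stress response.

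The hnRNPC gRNA and the nontarget gRNA used in this clone are shown because they help define the groups compared. The ADAR gRNA also defines the double-targeted group, but its sequence was not available here and its target was not checked. In the hnRNPC gRNA, the capitals mark the NGG motif next to the target as read from the genome.
hnRNPC.1: ctcattaacatactgaacgaAGG
NTC1: cgttaatcgcgtataatacg
The hnRNPC.1 target had 1 exact match followed by NGG in GRCh37, at chr14:21702173-21702195 on the + strand, in a coding exon of HNRNPC. NTC1 had 0 exact matches followed by NGG in that genome.

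Gene counts summed to 68145136 and 53396969 in the CTRL libraries and to 52392587 and 49666958 in the double-targeted libraries. The CTRL replicates stood apart from each other: 314 of the 13637 genes (2.3%) differed by more than 2-fold between them, 259 of these higher in replicate 2, against 36 to 72 genes in the other groups of total RNA. One such gene was POLR2A, the largest subunit of RNA polymerase II and named here for its interaction, which had 51.5 and 236 CPM in CTRL cells, 43.2 and 41.9 in hnRNPC-targeted, 34.1 and 32.5 in ADAR-targeted and 149 and 193 in double-targeted cells. For this gene CTRL replicate 2 lay with the double-targeted libraries and CTRL replicate 1 with the single-targeted libraries, a pattern that other genes, such as those of the IFIT and OAS family, did not have. The part of this split in the results was not tested other than by leaving out each library, and values without a CTRL library are given where they change a result. Of the monocytic markers, 8 of 10 were above 1 CPM in all 4 libraries, with summed levels of 733 to 807 CPM in CTRL and 683 to 719 CPM in double-targeted cells, whereas CD68 was at most 0.0784 CPM and CD14 was between 0.878 and 2.28 CPM. Of 12 T, B and NK cell markers 9 were below 1 CPM in all 4 libraries, with sums of 15.0 and 15.2 CPM in CTRL and 13.6 and 12.2 CPM in double-targeted cells, and all 12 epithelial, fibroblast and erythroid markers were below 1 CPM, with sums of 0.727 to 2.81 CPM.

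HNRNPC mRNA was at 910 and 581 CPM in the CTRL libraries, 433 and 493 in hnRNPC-targeted cells, 859 and 905 in ADAR-targeted cells, and 471 and 378 in double-targeted cells. The double-targeted values lay below both CTRL values (log2 fold change −0.81 ± 0.18 SE, adjusted p = 0.00275, quasi-likelihood test of edgeR, adjusted by Benjamini-Hochberg), but the change was smaller than the 2-fold set for a call. It was −0.45 (adjusted p = 0.0502 by edgeR) without CTRL replicate 1, −1.04 (adjusted p = 0.000125) without CTRL replicate 2 and −0.71 (adjusted p = 0.0697) when the 4 libraries were fitted alone, so its passing of the adjusted p depended on the libraries in the fit. ADAR mRNA, from the gene at chr1:154554171-154600489 (GRCh37, − strand), was at 858 and 869 CPM in CTRL, 564 and 448 in ADAR-targeted and 883 and 694 in double-targeted cells. The CTRL and double-targeted values of ADAR overlapped (log2 fold change −0.13 ± 0.16 SE, adjusted p = 0.538 by the same edgeR test). As background, ADAR is itself interferon-inducible, and the mRNA of a frame-shifted gene need not be lost.

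Editing was read in the same libraries as a measure of ADAR activity. By the paper's methods, candidate sites had to pass coverage, score and editing-frequency filters in a sample of ADAR wild-type cells. Sites thus entered through cells in which ADAR was not targeted, which favors lower over higher editing after ADAR targeting. The part of this choice in the values was not tested. Over 101947 sites with at least 10 reads in each of the 8 total RNA libraries, edited reads made up 7.12% and 6.60% of reads in CTRL cells and 7.18% and 7.17% in hnRNPC-targeted cells. They made up 2.24% and 2.08% in ADAR-targeted cells and 2.26% and 2.04% in double-targeted cells. The 95% Wilson intervals, which cover counting error alone, were narrow, from 7.097% to 7.143% for CTRL replicate 1 and from 2.245% to 2.274% for double-targeted replicate 1. Both double-targeted libraries therefore lay far below both CTRL libraries and beside the ADAR-targeted ones; a two-sided exact permutation test of 2 against 2 libraries cannot go below p = 0.333.

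Site by site, editing was lower at 4254 of 88324 sites tested (4.82% of all sites) and higher at 9 (0.0102%) in double-targeted than in CTRL cells (edgeR's quasi-likelihood test on edited and unedited reads, adjusted p of at most 0.05). These sites had at least 10 reads in each library, and the share depended on that minimum: 5232 of 37772 sites were lower with at least 20 reads and 4264 of 9385 with at least 50 reads. The excess of lower over higher sites also follows in part from the choice of sites in ADAR wild-type cells. Compared with ADAR-targeted cells, 2 sites were lower and 2 were higher in double-targeted cells. The comparison of hnRNPC-targeted with CTRL cells gave 0 lower sites and 1 higher site by the same test in edgeR, with 980 sites at an unadjusted p under 0.05. Among 18788 sites chosen for a mean editing of at least 10% in the hnRNPC-targeted libraries, which enter neither side of the comparison, the median editing was 16.7% in CTRL, 4.70% in ADAR-targeted and 4.72% in double-targeted cells. Sites in untranslated regions (UTRs) passed the test more often than intronic sites, 3121 of 32971 (9.47%) against 449 of 31740 (1.41%), while the median level of the highly edited sites in double-targeted cells was 4.53% in UTRs and 5.00% in introns, and the part of read depth in these shares was not tested. The number of lower sites was 1811 when double-targeted replicate 2 was left out, 2424 without replicate 1, and 2221 without CTRL replicate 1.

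The transcripts with the most sites of lower editing were QPRT, an enzyme of NAD synthesis, with 140 of 243 sites, VHL, part of a ubiquitin ligase, with 73 of 135, and EIF2AK2, the dsRNA-activated kinase, with 69 of 127. For EIF2AK2 the median over its highly edited sites was 19.3% and 17.1% in CTRL, 18.8% and 19.6% in hnRNPC-targeted, 4.03% and 3.85% in ADAR-targeted and 3.25% and 3.48% in double-targeted cells. BRI3BP had the highest CTRL medians of the 10 genes with the most such sites, 30.9% and 27.6%, against 5.74% and 5.2% in double-targeted cells. In coding exons 28 of 2313 sites were lower (1.21%, against 4.82% of all sites). Among these 28 was a site in BTBD2 at position 1992039 of chromosome 19, with means of 49.55% in CTRL and 4.88% in double-targeted cells. Another was a site in SRP9, a subunit of the signal recognition particle, with 26.9% and 10.2%. Both were picked from called coding sites for their high CTRL means, so the size of the gap follows in part from the choice. The fewest reads in a library were 19 for the BTBD2 site and 168 for the SRP9 site. In the pooled percentages of the plot of editing by library, the groups with an ADAR gRNA do not overlap those without one.

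Across genes, 457 of 13637 were higher (3.35%) and 128 were lower (0.939%) in double-targeted than in CTRL cells, where a call asked for a 2-fold change or more with the adjusted p not above 0.05 (edgeR's quasi-likelihood test, one fit over the 18 libraries of the study). In all 585 called genes both double-targeted values lay on one side of both CTRL values, which was also true of 62.3% of all genes tested. The median log2 fold change over all genes was −0.124, to which the gene lists are compared. Calls in each list are to be read beside the 3.35% higher and 0.939% lower of all genes. Counts at an unadjusted p under 0.05 are to be read beside 6172 of all 13637 genes, in either direction. In every list with 0 lower or 0 higher calls by edgeR, limma and DESeq2 gave 0 as well, except for 1 higher gene of nonsense-mediated decay by limma. When any 1 of the 4 libraries was left out, 318 of the 457 higher and 42 of the 128 lower genes were called every time. Without CTRL replicate 2 the calls were 662 higher and 216 lower. In bulk RNA of a nucleofected population, fewer cells with a change and a smaller change per cell cannot be told apart. Scaling by library totals alone moved the median of all genes to 0.0886 and gave 696 higher and 42 lower genes, and fitting the 4 libraries alone gave 539 higher and 67 lower, so that the share of higher genes among the calls was 94.3% and 88.9% instead of 78.1%.

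Among the dsRNA sensors and their adaptor, 6 of 13 tested members were higher and 0 lower (median log2 fold change 0.45; 3 lower at an unadjusted p under 0.05). RIGI, the sensor of RNA 5′ ends also known as RIG-I, rose from 25.3 and 19 CPM in CTRL to 219 and 118 CPM in double-targeted cells (log2 fold change 2.92 ± 0.33 SE, adjusted p = 1.34e-05). IFIH1, which encodes MDA5, the sensor of long dsRNA, rose from 35.3 and 28.0 to 159 and 98.6 CPM (2.02 ± 0.24 SE, adjusted p = 2.22e-05). In both genes the lower double-targeted library lay well above the higher CTRL library. DHX58, the regulator LGP2, rose by 1.95 on the log2 scale, IRF7, the transcription factor that amplifies interferon production, by 1.95 (24.0 and 18.2 to 94.9 and 68.1 CPM), and EIF2AK2 by 1.30. ZNFX1, a helicase that binds viral RNA, was just above the threshold at 94.4 and 82.8 to 192 and 163 CPM, and its log2 fold change was 0.97 without CTRL replicate 2 and 0.88 without double-targeted replicate 1. MAVS, the shared adaptor, had a log2 fold change of −0.48, and TBK1 and IRF3, which act downstream of it, had −0.15 and −0.40; none of the 3 was called. TLR7, an endosomal sensor of single-stranded RNA named by its fold change, went from 0.737 and 1.30 to 14.6 and 12 CPM (3.71 ± 0.32 SE, adjusted p = 8.25e-07).

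No interferon gene passed the filter on low counts, so the 22 interferon ligands were described by raw counts. IFNB1, which encodes IFN-β, had 8 and 15 reads in the CTRL libraries, 14 and 11 in hnRNPC-targeted, 83 and 65 in ADAR-targeted and 165 and 116 in double-targeted cells. The double-targeted counts were the highest of the 4 groups although these libraries were the shallowest. In the fit without a filter (edgeR, 42285 genes) the log2 fold change against CTRL was 3.62 ± 0.40 SE. No p-value is given for it. That fit took in many genes of few reads, and its SE and p-values cannot be set beside those of the filtered fit. IFNL1, a type III interferon named here after its counts were seen, had 0 and 1 reads in CTRL and 32 and 15 in double-targeted cells. The 13 IFN-α genes had 0 reads in all 4 of these libraries, as did IFNG, and IFNW1 had at most 3; at these depths 0 reads allow up to 3 reads of the library total, counting error alone.

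Of the interferon receptors, JAK-STAT factors and their regulators, 4 of 18 were higher and 0 lower (median 0.19; 2 lower at an unadjusted p under 0.05). USP18, an ISG15 protease that restrains the receptor, rose from 10.6 and 7.09 CPM in CTRL to 81.1 and 42.3 CPM in double-targeted cells (log2 fold change 2.80 ± 0.32 SE, adjusted p = 1.64e-05). The transcription factors of the list that rose included IRF1, from 31.9 and 23.7 to 95.5 and 71.1 CPM, and IRF9 from 3.86 and 3.23 to 11.3 and 9.98 CPM. The receptor chains IFNAR1 and IFNAR2 and the kinases JAK1 and TYK2 had log2 fold changes between −0.17 and 0.05 and were not called. STAT2 came close to a call (0.99 ± 0.21 SE, adjusted p = 0.00228) and passed without CTRL replicate 1 (1.20) or double-targeted replicate 2 (1.26).

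The IFIT and OAS family, cytoplasmic proteins that bind foreign RNA or make 2′-5′-linked oligoadenylates, had 8 of 9 tested members higher (median 2.74). OASL rose from 7.62 and 6.07 to 106 and 57.2 CPM (3.57 ± 0.28 SE, adjusted p = 4.78e-07), with 15.8 and 13.7 CPM in hnRNPC-targeted and 55.0 and 40.5 CPM in ADAR-targeted cells. IFIT1 rose from 20.2 and 11.2 to 199 and 102 CPM (3.26 ± 0.37 SE), and IFIT2 from 28.2 and 19.5 to 260 and 147 CPM (3.09 ± 0.27 SE). The groups were ordered in the same way for these 3 genes, with CTRL lowest, then hnRNPC-targeted, ADAR-targeted and double-targeted cells.

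Of 55 antiviral effectors, 33 were higher and 0 lower (median 1.41), and 46 were higher and 2 lower at an unadjusted p under 0.05. PARP12, an ISG with antiviral activity, rose from 20.9 and 18.9 to 93.5 and 61.5 CPM (1.96 ± 0.19 SE, adjusted p = 3.8e-06), XAF1, a pro-apoptotic ISG, from 44.5 and 42.1 to 198 and 141 CPM, and HERC6 from 12.1 and 10.5 to 76.3 and 48.1 CPM. The largest change was that of IFI44L at 3.17, followed by IFI44 at 3.00 and MX1, a GTPase that blocks influenza virus, at 2.92. SAMHD1, which degrades deoxynucleotides, had 529 and 418 CPM in CTRL and 381 and 333 CPM in double-targeted cells and was not called (−0.41 ± 0.14 SE).

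The genes that IFN-α induced in CTRL cells of the STING-deficient clone gave a list made from other libraries. It held 159 genes, of which 153 were tested here. In double-targeted cells 86 of the 153 (56.2%) were higher, against 3.35% of all genes, and 0 were lower by edgeR (1 at an unadjusted p under 0.05); their median log2 fold change was 1.18, with quartiles of 0.54 and 2.02. Leaving out a library gave between 70 and 96 of them. The other 371 of the 457 higher genes were not on that list. In ADAR-targeted cells 53 of the 153 were higher (2.04% of all genes were higher) with a median of 0.76, and in hnRNPC-targeted cells 1 was higher (0.279% of all genes) with a median of 0.28. These 3 contrasts share the CTRL libraries, so their medians are given side by side without a test.

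Chemokines and inflammatory cytokines had 7 of 10 tested members higher and 0 lower (median 1.70; 0 lower at an unadjusted p under 0.05). CXCL10, the chemokine that draws CXCR3-bearing T cells, showed the largest change of all called genes by the naming rule: 0.204 and 0.208 CPM in CTRL, 0.371 and 0.0991 in hnRNPC-targeted, 16.7 and 9.90 in ADAR-targeted and 60.2 and 27.3 in double-targeted cells, a 210-fold difference between double-targeted and CTRL cells (log2 fold change 7.72 ± 0.61 SE, adjusted p = 4.46e-07). CXCL11, another CXCR3 ligand, rose from 0.580 and 0.243 to 10.9 and 6.19 CPM (4.35 ± 0.39 SE), CCL2, which recruits monocytes, from 0.188 and 0.642 to 3.64 and 2.30 CPM, and IL1B from 2.87 and 2.15 to 10.8 and 8.14 CPM. With so few CTRL reads these sizes moved with single libraries: on the log2 scale CXCL10 was at 7.04 without double-targeted replicate 1, CXCL11 at 5.13 without CTRL replicate 1, and CCL2 at 2.21 and 4.02 without CTRL replicates 1 and 2 (2.86 with all). CXCL8 had overlapping values, 8.69 and 4.25 against 13.2 and 7.75 CPM, and was not called, although without CTRL replicate 1 it was (1.30, adjusted p = 0.0301 by edgeR). TNFSF13B, the B cell survival factor BAFF, and TNFSF10, the death ligand TRAIL, rose by 1.94 and 1.49 on the log2 scale.

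Targets and feedback regulators of NF-κB were higher in 6 of 17 and lower in 0 (median 0.54; 0 lower at an unadjusted p under 0.05). BIRC3, a ubiquitin ligase of TNF receptor signaling, rose from 2.02 and 1.80 to 16.6 and 13.6 CPM (2.98 ± 0.20 SE, adjusted p = 1.93e-07). ICAM1, an adhesion molecule, rose from 0.988 and 0.850 to 10.4 and 8.11 CPM, and TNFAIP3, the NF-κB inhibitor A20, from 13.6 and 12.1 to 90.6 and 81.8 CPM. Replicates of these genes lay close together relative to the change. BCL3, RELB and NFKB2 were also higher, whereas RELA and NFKB1, which encode the subunits of the canonical dimer, had log2 fold changes of −0.24 and 0.51 and were not called. Of the factors of cytosolic DNA sensing 2 of 10 were higher (3.35% of all genes, median −0.20): IFI16 (36.1 and 39.6 to 213 and 137 CPM) and PYHIN1. STING1, present in this clone, was at 279 and 241 CPM in CTRL and 171 and 156 CPM in double-targeted cells (−0.67 ± 0.14 SE, not called), and CGAS had a log2 fold change of 0.24.

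**Figure D1:**
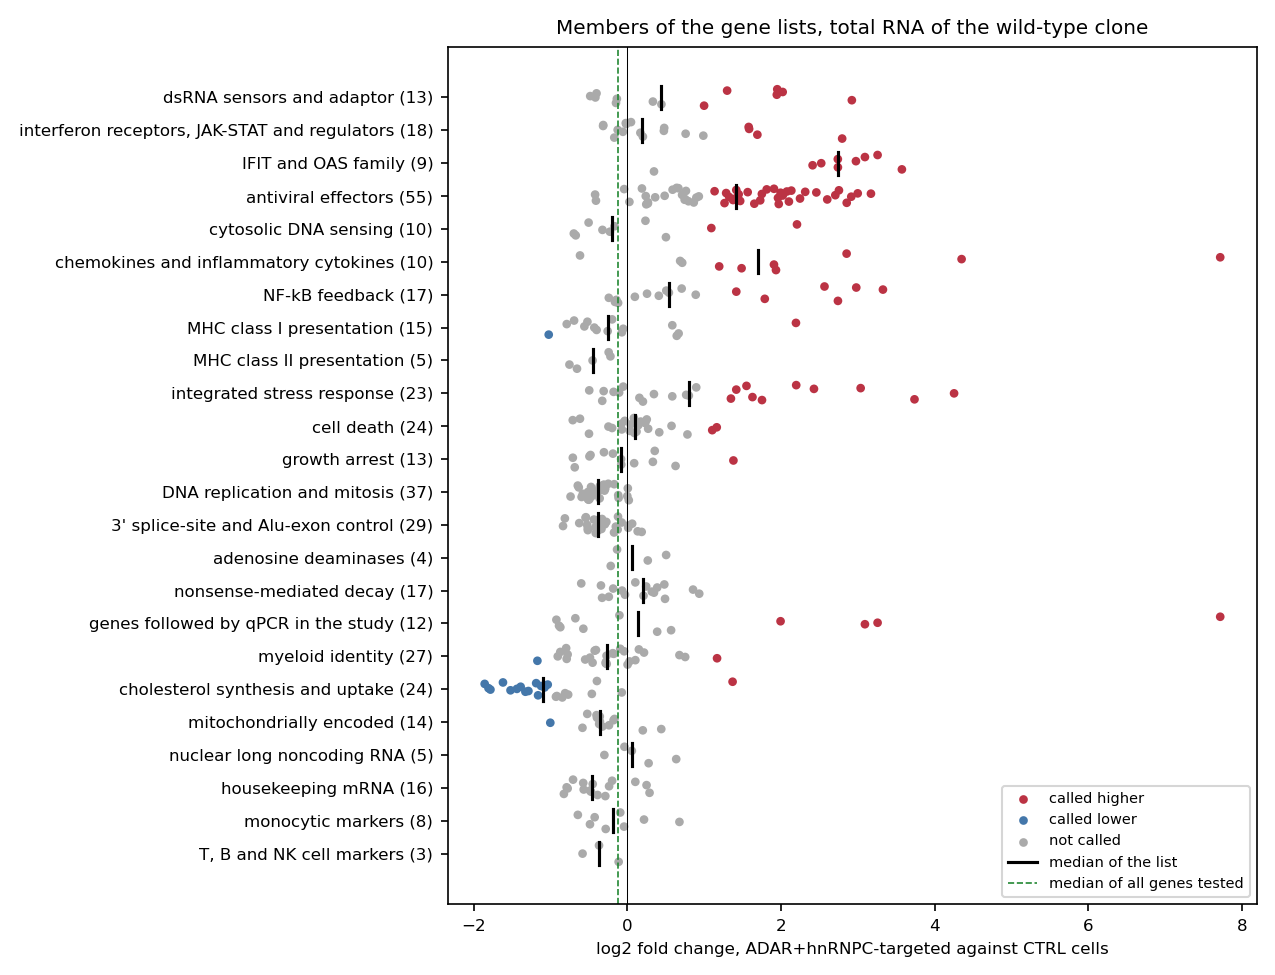
log2 fold change of double-targeted against CTRL cells for each tested member of the gene lists (points; the number tested is in parentheses), with the median of each list (black bar) and that of all genes tested (dashed line, −0.124). The IFIT and OAS family and the antiviral effectors lie to the right, and the cholesterol genes to the left with a median of −1.10.

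MHC class I shows peptides to CD8 T cells. Of its genes of antigen presentation, 1 of 15 was higher and 1 lower (median −0.25), beside 3.35% and 0.939% of all genes. ERAP2, a peptide-trimming aminopeptidase, rose from 6.10 and 5.22 to 30.5 and 21.4 CPM (2.20 ± 0.19 SE, adjusted p = 1.18e-06). TAPBP, which encodes tapasin, fell from 29.9 and 51.3 to 19.1 and 20.9 CPM (−1.02 ± 0.24 SE, adjusted p = 0.00473), a call that was lost without CTRL replicate 2. The 5 MHC class II genes tested, of which the HLA genes share near-identical sequence and are uncertain, were between −0.75 and −0.22 and none was called (3 lower at an unadjusted p under 0.05).

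The integrated stress response, in which phosphorylation of eIF2α raises translation of ATF4 and so transcription of its targets, had 10 of 23 members higher and 0 lower (median 0.80; 1 lower at an unadjusted p under 0.05). INHBE, a hepatokine gene and stress target, rose from 1.22 and 0.364 to 19 and 11.8 CPM (4.25 ± 0.35 SE, adjusted p = 5.79e-07). Its log2 fold change was 5.39 without CTRL replicate 1 and 3.71 without CTRL replicate 2. STC2, a secreted glycoprotein, rose from 0.612 and 0.399 to 8.02 and 5.60 CPM. CHAC1, which degrades glutathione, rose from 1.77 and 1.37 to 13.8 and 12.1 CPM, ASNS, asparagine synthetase, from 11.8 and 12.3 to 61.8 and 48.8 CPM, and TRIB3, a pseudokinase, from 56.7 and 49.5 to 202 and 156 CPM. In ADAR-targeted cells these were at 14.1 and 13.0 CPM for INHBE, 12.5 and 9.88 for CHAC1 and 46.0 and 45.3 for ASNS, next to the double-targeted values, while hnRNPC-targeted cells were at 0.801 and 1.18, 2.08 and 1.90, and 13.3 and 16.1. The mRNAs of ATF4 itself (−0.05) and of the eIF2α kinases other than EIF2AK2 (−0.49 to −0.18) were not called.

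Cell death genes were higher in 2 of 24 (3.35% of all genes) and lower in 0, with a median of 0.11. At an unadjusted p under 0.05, 3 were lower. MLKL, the effector of necroptosis, rose from 27.3 and 22.3 to 62.6 and 44.1 CPM and the death receptor FAS from 2.93 and 2.29 to 6.80 and 4.93 CPM. Both calls were lost without double-targeted replicate 1 (log2 fold changes 0.83 and 0.92). BCL2, which protects from apoptosis, was at 260 and 229 in CTRL and 152 and 147 CPM in double-targeted cells, and its change of −0.71 ± 0.10 SE (adjusted p = 7.51e-05) was below 2-fold. Of the growth arrest genes 1 of 13 was called higher (3.35% of all genes, median −0.08): GADD45A, from 14.4 and 12.3 to 37.7 and 31.9 CPM. CDKN1A, which encodes p21, had a log2 fold change of −0.19. For DNA replication and mitosis 0 of 37 were called by edgeR, with a median of −0.39 and 28 lower at an unadjusted p under 0.05, and the members lay between −0.74 (MYC) and 0.02.

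Genes of cholesterol synthesis and uptake moved downward: 15 of 24 were lower (0.939% of all genes) and 1 was higher (median −1.10). HMGCS1, which makes HMG-CoA, fell from 102 and 89.9 to 38.4 and 35.1 CPM (−1.39 ± 0.17 SE, adjusted p = 2.36e-05), SQLE, squalene epoxidase, from 378 and 285 to 158 and 139 CPM, and DHCR7, which catalyzes the last step to cholesterol, from 51.4 and 36.3 to 15.0 and 9.28 CPM. Both single-targeted groups lay between for HMGCS1, at 62.2 and 41.2 CPM with hnRNPC gRNA and 52.8 and 48.2 CPM with ADAR gRNA. INSIG1, which holds the SREBP transcription factors in the endoplasmic reticulum and is itself their target, fell from 378 and 280 to 116 and 72.1 CPM. SREBF2, which encodes SREBP2, had −0.93 ± 0.18 SE and was not called (−1.10, past the threshold, without CTRL replicate 1), and the member that rose was ABCG1, a cholesterol exporter (1.37). Without CTRL replicate 1, 9 members were called lower rather than 15, and SQLE was at −0.94.

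Among genes of 3′ splice-site choice and Alu exon control 0 of 29 were called (median −0.38, 18 lower and 0 higher at an unadjusted p under 0.05), and their log2 fold changes ran from −0.84 for SRSF1 to 0.19 for TIAL1. By edgeR none of 4 adenosine deaminases (median 0.07) and none of 17 factors and targets of nonsense-mediated decay (median 0.21) was called. At an unadjusted p under 0.05 were 2 and 9 of them, beside 6172 of all 13637 genes. Of 12 genes that the study followed by qPCR, 4 were higher, namely CXCL10, IFIT1, IFIT2 and IFI27, and 0 lower (median 0.15); this list was chosen by the study and in part on its own samples, so it is not independent evidence of direction. Myeloid identity genes had 1 of 27 higher and 1 lower (median −0.27), beside 3.35% and 0.939% of all genes. PRTN3, the granule protease proteinase 3, fell from 459 and 458 to 190 and 218 CPM (−1.17 ± 0.15 SE, adjusted p = 3.87e-05 by edgeR). None of the 8 monocytic markers tested (median −0.19), the 3 lymphoid markers tested (−0.37) or the 16 housekeeping genes (−0.46) was called by edgeR, with 4, 0 and 13 of them at an unadjusted p under 0.05. Mitochondrially encoded genes gave 1 lower of 14 (median −0.36), namely MT-ND3; without CTRL replicate 2 the median was 0.75 with 5 higher, and without CTRL replicate 1 it was −0.80 with 3 lower, so the direction of this list depended on 1 library. The same held for the 5 nuclear long noncoding RNAs, none of them called (median 0.06; −0.38 without CTRL replicate 1 and 0.71 without CTRL replicate 2). NEAT1, for example, was at 170 and 337 CPM in CTRL and 186 and 226 CPM in double-targeted cells.

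Beyond these lists, the 12 protein-coding genes with the largest increase included CYP1A1, a cytochrome P450 induced by the aryl hydrocarbon receptor, which went from 0.0471 and 0.243 to 8.63 and 6.80 CPM (5.75 ± 0.47 SE, adjusted p = 5.79e-07). GUCY2F, a retinal guanylate cyclase, rose from 0.345 and 0.312 to 8.76 and 6.96 CPM, STAP1, a signaling adaptor, from 0.847 and 0.676 to 13.2 and 7.52 CPM, and FUT1, a fucosyltransferase, from 0.251 and 0.382 to 3.84 and 3.57 CPM. PTGFR, the prostaglandin F receptor, had 0.282 and 0.0520 against 2.88 and 2.32 CPM, and ENPP2, which encodes autotaxin, 0.0627 and 0.590 against 5.11 and 3.46 CPM. All of these genes were below 1 CPM in both CTRL libraries, so their fold changes rest on few CTRL reads. Without CTRL replicate 1 the log2 fold changes of CYP1A1, PTGFR and ENPP2 were 4.98, 5.59 and 2.86, and without CTRL replicate 2 they were 7.35, 3.25 and 6.10; with both they were 5.75, 3.903 and 3.74. PTGFR and FUT1 fell under the low-count filter when either double-targeted library was left out.

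Of the 12 with the largest decrease, TBC1D30, a Rab GTPase-activating protein at chr12:65153264-65274813 (GRCh37, + strand), went from 97.8 and 91.1 to 2.67 and 2.13 CPM, 39.3-fold lower (−5.30 ± 0.94 SE, adjusted p = 0.000638). It was at 40.1 and 5.55 CPM in hnRNPC-targeted and at 11.7 and 3.03 CPM in ADAR-targeted cells, so replicates of the single-targeted groups differed by several fold while the 4 libraries of the contrast did not. SULF2, an extracellular sulfatase, fell from 9.57 and 12.4 to 1.71 and 0.923 CPM, with 5.81 and 0.595 CPM in hnRNPC-targeted cells. SLC6A8, the creatine transporter, fell from 103 and 120 to 19.3 and 21.5 CPM, and ALDOC, aldolase C of glycolysis, from 20.1 and 14.9 to 3.59 and 2.18 CPM. FADS2, a fatty acid desaturase, was at 447 and 264 against 114 and 54.4 CPM (−2.08 ± 0.46 SE, adjusted p = 0.00274), and its call was lost without double-targeted replicate 2 (−1.63), while it was −2.71 without double-targeted replicate 1. TMEM45A, ADAMTS4, C16orf74, PNCK, DHCR7, INSIG1 and LSS, the lanosterol synthase, completed the 12, with log2 fold changes of −2.16 to −1.78.

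The factorial design asked whether double targeting differed from the sum of the effects of targeting either gene. Singly, hnRNPC gRNA gave 38 higher (0.279%) and 62 lower (0.455%) genes, and ADAR gRNA 278 higher (2.04%) and 123 lower (0.902%). These counts moved with the CTRL libraries: they were 427 and 831 genes in all for hnRNPC and ADAR without CTRL replicate 1, and 47 and 237 without CTRL replicate 2. The interaction was called for 506 genes above the sum (3.71%) and 153 below it (1.12%), with a median of −0.229 over all genes. The number rested on single libraries: it was 1688 without CTRL replicate 1, 135 without CTRL replicate 2, 257 without double-targeted replicate 2, 322 without ADAR-targeted replicate 2 and 9 without hnRNPC-targeted replicate 2. In a fit of the 8 total RNA libraries alone it was 0 by edgeR and 0 by limma, with 4663 and 4639 genes at an unadjusted p under 0.05, whereas DESeq2 called 558 above and 71 below the sum in these libraries.

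The 8 genes with the largest positive interaction were POLR2A, ATN1, KMT2D, BICRA, HIVEP3, BCORL1, SRCAP and CCNK, most of which encode transcription or chromatin proteins. All had the pattern of POLR2A, with CTRL replicate 2 and both double-targeted libraries high and the rest low. KMT2D, a histone methyltransferase, was at 34.6 and 147 CPM in CTRL, 37.4 and 30.2 in hnRNPC-targeted, 25.7 and 28.4 in ADAR-targeted and 83.6 and 121 in double-targeted cells (interaction 3.34 ± 0.56 SE, adjusted p = 0.006), while its difference between double-targeted and CTRL cells was 0.18 ± 0.38 SE (adjusted p = 0.749 by edgeR). The double-targeted values of these genes thus lay between the 2 CTRL values, and without CTRL replicate 2 all 8 were called higher in double-targeted than in CTRL cells (1.28 to 2.09). TSEN34, a subunit of the tRNA splicing endonuclease and 1 of the 4 largest negative interactions, was at 4.41 and 3.30 in CTRL, 4.55 and 4.90 in hnRNPC-targeted, 3.88 and 4.26 in ADAR-targeted and 1.98 and 0.822 CPM in double-targeted cells (−1.83 ± 0.39 SE, adjusted p = 0.0099). The other 3 were DUSP1, TIMM17B and FADD, of which DUSP1 and FADD were not past an adjusted p of 0.05 without CTRL replicate 2.

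For the IFN-α-induced genes the interaction on the log2 scale had a median of 0.148, against −0.229 over all genes. Of the 153 genes, 2 were called above the sum and 0 below it, against 3.71% and 1.12% of all genes. IFIT1 is an example of a small interaction. Its log2 fold changes were 1.10 for hnRNPC gRNA, 2.11 for ADAR gRNA and 3.26 for both, with an interaction of 0.05 ± 0.49 SE (adjusted p = 0.95 by edgeR). On this scale equal effects multiply, so a sum met in log2 units is a product in CPM. CXCL10 had an interaction of 1.54 ± 1.05 SE (adjusted p = 0.28) and CXCL11 of 0.99 ± 0.56 SE (adjusted p = 0.19). Of the named genes of immune function, ICAM1 (1.37 ± 0.37 SE, adjusted p = 0.02) and TNFAIP3 (1.25 ± 0.36 SE, adjusted p = 0.023) were above the sum; without CTRL replicate 2 their adjusted p-values were 0.0607 and 0.0702. Without CTRL replicate 1, 5 of the IFN-α-induced genes were called above and 2 below the sum, and without CTRL replicate 2 none was.

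Cytosolic-enriched RNA of the same gRNA groups gave other libraries, although it may come from the same cultures. There 907 genes were higher (6.65%) and 170 lower (1.25%) in double-targeted cells. Of the 457 genes higher in total RNA 392 were also higher in cytosolic RNA (85.8%, and 43.2% of the cytosolic list), and of the 128 lower genes 51 were (39.8%, and 30% of the cytosolic list). The IFN-α-induced genes had 102 of 153 higher and a median of 1.43. CXCL10 changed by 8.24 on the log2 scale in cytosolic RNA and by 7.72 in total RNA, and OASL by 4.26 and 3.57. The difference between the 2 kinds of RNA was itself called in 348 genes toward a larger cytosolic response (2.55%) and in 5 toward a smaller one (0.0367%). TAPBP was 1 such gene, with −1.02 in total and 1.54 in cytosolic RNA, and B2M, the light chain of MHC class I, had −0.20 and 1.49 (difference 1.69 ± 0.24 SE, adjusted p = 0.000589). CD74, the MHC class II invariant chain, had −0.24 and 1.92.

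In the STING-deficient clone of the first study, double targeting raised 448 genes (3.4%) and lowered 170 (1.29%) on day 4. Among 12687 genes tested in both studies, 390 were higher in the wild-type and 411 in the STING-deficient clone, and 227 were shared (58.2% and 55.2%). Lower genes shared 24, which was 21.4% of 112 and 14.6% of 164. No gene was called in opposite directions. Clone, gRNAs and sequencing run changed together between the studies and cannot be told apart.

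In a joint fit of the 10 libraries the response differed in 45 genes toward a larger value in the wild-type clone (0.33%) and in 113 toward a larger value in the STING-deficient clone (0.829%) of 13623 tested. In all, the 158 genes became 260 and 285 without CTRL replicate 1 or 2 of the wild-type clone, 81 without its double-targeted replicate 1, and 95 without CTRL replicate 2 of the STING-deficient clone. RIGI rose from 25.2 and 19.7 to 221 and 122 CPM in the wild-type clone and from 17.2 to 18 CPM in the 3 CTRL libraries to 33.3 to 54.0 CPM in the STING-deficient clone (difference 1.71 ± 0.34 SE, adjusted p = 0.0199). TNFSF13B was at 6.54 and 4.07 against 25.5 and 15.6 CPM in the wild-type clone, and at 8.74 to 10.7 against 9.43 to 12.3 CPM in the STING-deficient clone (difference 1.82 ± 0.32 SE). MNDA, a myeloid nuclear antigen, had overlapping CTRL and double-targeted values here and fell from between 152 and 203 to between 32.9 and 43.3 CPM there. In the other direction, C3AR1, the receptor for complement C3a, was at 5.27 and 12.7 against 8.99 and 13.8 CPM in the wild-type clone and rose from between 0.256 and 0.282 to between 2.80 and 4.24 CPM in the STING-deficient clone (difference −3.28 ± 0.49 SE). EGR3, an early growth response factor, was at 9.58 and 22.7 against 4.79 and 7.79 CPM in the wild-type clone and at most at 0.829 CPM in any library of the STING-deficient clone. SULF2 and FCGR2C likewise had CTRL levels in the wild-type clone, 9.5 and 12.9 CPM and 8.66 and 9.49 CPM, above every library of the STING-deficient clone, and reads of FCGR2C are uncertain because of its near-identical paralogs. CXCL11 had 0 reads in the 3 CTRL libraries of the STING-deficient clone and 1.79 to 2.94 CPM in its double-targeted libraries, so its fitted difference depends on a prior count and no fold is given.

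**Figure D2:**
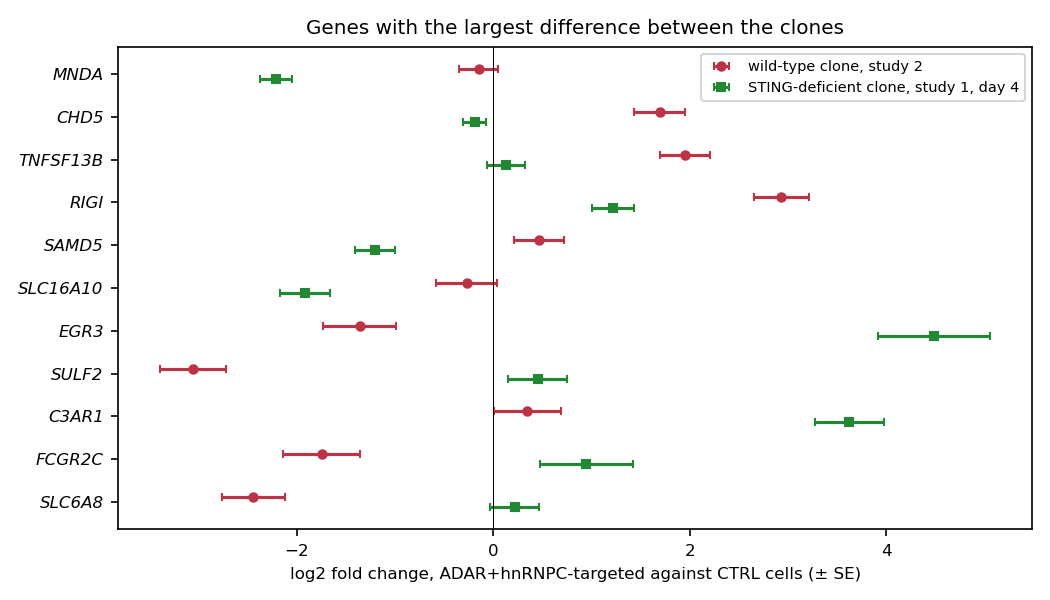
log2 fold change (± SE) of double-targeted against CTRL cells in the wild-type clone (circles) and the STING-deficient clone on day 4 (squares) for 11 of the 12 genes with the largest difference between the clones; CXCL11 is left out because its CTRL libraries in the STING-deficient clone had 0 reads. RIGI, CHD5 and TNFSF13B have larger values in the wild-type clone, and EGR3 and C3AR1 in the STING-deficient clone. The CHD5 change in the wild-type clone rests on few reads, with 0.198 to 0.923 CPM in its libraries against 11.7 to 14.0 CPM in the STING-deficient clone.

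Editing cluster-rich regions (ECRs) are stretches of transcripts that hold many editing sites close together and were counted by the authors as features of their own. Of 2470 tested, 39 were higher (1.58%) and 29 lower (1.17%) in double-targeted than in CTRL cells, with a median of −0.145. Of the higher ECRs, 28 lay in a gene that was tested, and that gene was called higher for 17 of them. An IFN-α-induced gene held 12 of the 39. The same shares over all 2470 ECRs were not computed. Of the 39, 12 overlapped a coding exon, 9 a UTR and 4 another exon. Such ECRs share reads with their gene, so their values and those of the gene are not independent. An ECR that overlaps a UTR of MX1, at chr21:42798864-42800978 (GRCh37), was at 7.59 and 4.65 CPM in CTRL. In double-targeted cells it was at 62.1 and 37.2 CPM (3.02 ± 0.40 SE, adjusted p = 6.78e-05 by edgeR), beside 2.92 for the gene. AJUBA had an ECR that overlaps a coding exon and went from 3.28 and 2.69 to 20.4 and 14.6 CPM, with 19.3 and 16.5 CPM in ADAR-targeted cells. Where the editing sites lie within these 2 regions was not examined.

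An ECR in an intron of MARS1, the gene of methionyl-tRNA synthetase, differed from its gene. At chr12:57886808-57888929 (GRCh37) it was at 0.565 and 0.937 CPM in CTRL, 3.23 and 2.58 in hnRNPC-targeted, 1.5 and 0.613 in ADAR-targeted and 5.73 and 5.19 in double-targeted cells. Both groups with an hnRNPC gRNA lay above both without one (double against CTRL 2.87 ± 0.36 SE, adjusted p = 4.42e-05; hnRNPC alone 1.96 ± 0.36 SE, adjusted p = 0.00197), while the log2 fold change of the gene was 0.46 (adjusted p = 0.0186). Lower ECRs included those in FADS2 (−1.93) and FADS1 (−1.54), beside lower reads of their genes. Both overlap exons and so share reads with these genes. The 68 ECRs called became 162 without CTRL replicate 2 and 21 when the 4 libraries were fitted alone.

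Promoter sequence was read because 86 of the 585 called genes were on the IFN-α list, and the interferon-stimulated response element recognized by IRF9 and other IRFs contains repeated GAAA. In RefSeq promoters (GRCh38.p14, 250 bases before to 50 bases after each start), GAAANNGAAA was searched on both strands. It was found in 30 of 63 promoters of higher genes on the IFN-α list (47.6%), in 9 of 252 of the other higher genes (3.57%) and in 1 of 79 of the lower genes (1.27%), against 277 of 9803 promoters of genes tested (2.83%) and 3.65% of all 27305 promoters searched. The following windows show the match in capitals within 30 bases, read along the gene's strand; CXCL10 was taken by the naming rule, and the others were added after their values were known.
CXCL10: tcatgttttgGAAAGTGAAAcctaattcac
IFIT3: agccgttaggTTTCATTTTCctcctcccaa
IFIT5: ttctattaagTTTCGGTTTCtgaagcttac
IFIH1: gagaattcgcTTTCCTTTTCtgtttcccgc
The CXCL10 window lies at chr4:76023699-76023728 on the − strand, from a gene that rose by 7.72 on the log2 scale, and its match runs from base −221 to −212 relative to the start. The IFIT3 window lies at chr10:89327831-89327860 (+ strand, gene change 2.74), that of IFIT5 at chr10:89414513-89414542 (+ strand, 2.98) and that of IFIH1 at chr2:162318824-162318853 (− strand, 2.02), each with the motif on the opposite strand. A match is a description of the letters in this window and not a binding site.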

How the data were processed

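Per the labels, reads were aligned by the authors with STAR 2.5.4a to GRCh37 and counted with featureCounts, and the gene and editing cluster-rich region (ECR) tables were deposited as raw counts. Per editing site the authors deposited counts of edited reads and of all reads, and unedited reads were taken as the difference. Some members of the lists are counted but not reported here by name.

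Counts of the 18 libraries of study 2 were fitted together with edgeR 4.0.16 (TMM scaling, quasi-likelihood test, one coefficient per group), with Benjamini-Hochberg adjustment over all genes tested. Genes needed an average log2 CPM of at least 0.5 and ECRs of at least 4.5. Calls asked for a log2 fold change of 1 or more in size with the adjusted p not above 0.05. CPM are gene counts scaled by TMM library size. Each SE, also in the figures, is the absolute log2 fold change divided by the square root of the test's F statistic. It was thus derived from the test and not estimated apart from it. Editing sites needed 10 reads in each of the 8 total RNA libraries and were tested with edgeR on both counts. The clone comparison joined 10 libraries, and the IFN-α list came from the 48 libraries of study 1. limma 3.58.1 and DESeq2 1.42.0 were alternatives. The fits were tested on simulated data with known changes. Of 57820 gene IDs 55538 matched the annotation and took its names. Promoters of chromosome 8 were not used here.

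Named genes were both targeted genes, the 12 protein-coding called genes with the largest change in each direction (mean of at least 1 CPM in the higher group, no overlap), per list up to 4 called and 2 uncalled members, the 8 and 4 largest interactions, 6 and 6 clone differences, and 5 and 3 ECRs. The members, lists and tests were chosen with earlier results of these data known. Lists are described by counts and medians, with no set test.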

Additional observations from a re-analysis of the deposited data

Results flagged for a closer look

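The response to double targeting differed between the wild-type and the STING-deficient clone in 158 genes by the test of the difference itself. The 11 named with a defined value were, as the response in the wild-type minus that in the STING-deficient clone on the log2 scale, MNDA (2.06), CHD5 (1.88), TNFSF13B (1.82), RIGI (1.71), SAMD5 (1.68) and SLC16A10 (1.65), and on the other side EGR3 (−5.85), SULF2 (−3.51), C3AR1 (−3.28), FCGR2C (−2.70) and SLC6A8 (−2.66). For MNDA, SAMD5 and SLC16A10 the difference came with lower values after double targeting in the STING-deficient clone, and for SULF2, FCGR2C and SLC6A8 with lower values in the wild-type clone. Clone, gRNAs and sequencing run cannot be told apart.

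The response also differed between cytosolic and total RNA of the wild-type clone in 353 genes. Among the genes named here, the cytosolic minus the total response was 2.57 for TAPBP, 2.16 for CD74, 1.76 for AZU1, 1.69 for B2M, 1.56 for PTPRC, 1.51 for CALR, 1.15 for LYZ and 1.12 for NCAM1, all on the log2 scale. AZU1, for example, had −0.79 in total RNA and 0.96 in cytosolic RNA.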

How the results depend on the processing

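The count of 585 genes called between double-targeted and CTRL cells ranged from 525 to 878 when a library was left out (highest without CTRL replicate 2), was 1365 without the low-count filter, and lay between 578 and 738 under the other alternatives, which were the RLE factors, library totals, limma, DESeq2, the 8 or the 4 libraries alone and the block. Of the 457 higher genes 314 were called under all 12 alternatives, and of the 128 lower genes 35. The 86 IFN-α-induced genes ranged from 70 to 96 in leave-one-out fits. The interaction count of 659 ranged from 9 to 1688, was 1257 without the filter and 0 in the 8 libraries alone. The clone difference of 158 ranged from 81 to 285 and was 310 without the filter, and its lowest value came without double-targeted replicate 1. The 68 ECRs ranged from 63 to 162 and were 21 in the 4 libraries alone. The 4263 editing sites ranged from 1817 to 3028. Single targeting ranged from 47 to 427 genes for hnRNPC and from 237 to 831 for ADAR when a CTRL library was left out, alternatives that, like those of the cytosolic count of 1077 (986 to 1145), were chosen after seeing the data. The log2 fold change of ADAR was 0.0701 with library totals and went from −0.316 to 0.0314 in leave-one-out fits, positive without double-targeted replicate 2. FADS2 lost its call without that library (−1.63), and HNRNPC gained one without CTRL replicate 2 (−1.04). All other log2 fold changes tracked for the targeted genes and the 24 genes of largest change kept direction and call in each fit that gave a value. The cause of these changes was not tested.

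The groups share replicate numbers and the replicates are independent experiments, but the labels do not say that a number marks the same experiment in each group, and 2 pairs are too few to settle it from the data. With the replicate number as a block, 595 genes, 667 interactions, 84 IFN-α-induced genes, 195 clone differences, 67 ECRs and 3622 sites of lower editing were called. Deviations of same-numbered CTRL and double-targeted libraries correlated at 0.445 over 13637 genes, within libraries that share depth and scaling. The 2 libraries per group limit precision more than the 49666958 to 73873756 gene counts per total RNA library do for most genes, whereas IFNB1 and genes under 1 CPM rest on few reads.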

Other observations

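Genes with the largest excess of the cytosolic over the total response to double targeting were chosen after their values were seen. IL4I1, a secreted amino acid oxidase, had a log2 fold change of 2.42 in total and 5.93 in cytosolic RNA (difference 3.51 ± 0.68 SE, adjusted p = 0.00486, edgeR). LGALS3BP, a secreted glycoprotein, had 0.49 and 3.20, SLC2A6, a hexose transporter, 1.34 and 3.86, and OS9, a lectin of the endoplasmic reticulum, −0.51 and 1.86. SERPINA1, the secreted protease inhibitor α1-antitrypsin, had 0.66 and 2.99. No cause of these differences was tested.

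Of the 457 genes higher in total RNA of double-targeted cells 385 were protein-coding, as were 100 of the 128 lower genes. For 82 of the higher and 18 of the lower genes a gene list described above holds the gene.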
